A study of Mus musculus with 4 samples.

Results

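Chromatin remodellers and histone methylation enzymes were examined in sorted intestinal stem cells from mice with intact CREPT and from mice with induced CREPT deletion. Genes were taken by symbol alone, as those named Kmt, Kdm or Setd with a number, Smarca to Smarce, Arid1 to Arid5, or Chd with a number from 1 to 9. This gave 64 of the 18436 genes measured. The list holds lysine methyltransferases, lysine demethylases, chromodomain helicases, SWI/SNF (BAF) subunits and ARID proteins, so it was set by names and not by expression. Of the 64 genes, 59 had a mean of at least 0.5 FPKM, the unit of expression given with the samples, and were tested, and 5 lay under that filter.

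CREPT, encoded by Rprd1b, is a protein that binds the tail of RNA polymerase II. The Lgr5 group held 2 C57BL/6 mice that carried the Lgr5-GFP-CreERT2 driver and had intact CREPT. The Lgr5KO group held 2 mice that carried the driver with CREPT fl/fl alleles, so that Cre could remove CREPT in cells that express Lgr5 and their descendants. Mice of both groups were 6 to 8 weeks old and were given a daily tamoxifen dose of 1 mg over 5 days. Cells with high GFP were sorted on day 7. The driver is mosaic, with some crypts that express no GFP, and the sort kept only the Lgr5-high cells that remained on day 7. Expression was given as FPKM, fragments scaled to transcript length and to the mapped total of each library, with 1 value per gene and mouse. The table held no read counts, so the number of reads behind each value is unknown.

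DNA in the nucleus is wrapped around histones, and most of these proteins either move those histones or mark their tails. Kmt2 and Setd1 proteins methylate lysine 4 of histone H3 within COMPASS complexes, Setd2 methylates lysine 36, and Kdm enzymes take methyl groups off again. SWI/SNF complexes are built around the ATPase Smarca4 or Smarca2 on a core of Smarcc1, Smarcc2 and Smarcb1, while Chd proteins are ATPases of other remodelling complexes. In the intestine, Smarca4 and Arid1a are known to be needed for the upkeep of crypt stem cells.

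Rprd1b was 17.69 and 18.09 FPKM in the Lgr5 mice and 6.65 and 7.36 FPKM in the Lgr5KO mice, lower by the test (log2 fold change -1.29, adjusted p = 0.028). Rprd1b RNA was thus reduced but not absent in the Lgr5KO mice. Whether the remaining RNA came from cells that kept the gene or from transcripts lacking only the deleted part was not tested. FPKM values summed to between 468830 and 499327 in the 4 mice. Stem cell markers were present in every mouse, with 5658 to 5872 FPKM summed over 6 genes in Lgr5 mice and 6137 to 6364 in Lgr5KO mice. Most of each sum was Olfm4 (5077 and 4932 against 5351 and 5181 FPKM, log2 fold change 0.07). All 6 were higher in Lgr5KO cells, with a median log2 fold change of 0.36 and none called. Markers of secretory cells differed in direction by cell type. The 6 goblet markers were all lower in Lgr5KO mice (sums of 1336 and 2154 FPKM against 742 and 771, 1 called), the 7 enteroendocrine markers were all lower (170 and 191 against 50.6 and 63.8, 5 called), and the 5 tuft markers were all lower (21.3 and 43.8 against 17.2 and 6.42, none called). The sums for Paneth cells (734 to 2176), enterocytes (142 to 299), immune cells (4.72 to 9.43) and stroma (0.18 to 0.35) overlapped between the genotypes. The part of these cell types in the results below was not tested, and in bulk RNA fewer cells of a type and less RNA per cell cannot be told apart.

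Most of the genes were expressed at moderate levels. The 59 tested genes had a median of 15.0 FPKM over the 4 mice, against 11.7 FPKM for all 12621 genes tested, and 41 of them exceeded 10 FPKM. Smarcd2, a SWI/SNF accessory subunit, was the highest at a mean of 124 FPKM, followed by Setd8 (Kmt5a), the enzyme that adds a single methyl group to lysine 20 of histone H4. Setd8 was 80.91 and 89.70 FPKM in Lgr5 mice and 86.54 and 85.96 in Lgr5KO mice. Arid3a was the lowest of the tested genes at 0.513 FPKM. These levels are per length of transcript and can be compared between genes. The median difference between mice of a genotype was 0.09 (log2) in Lgr5 and 0.07 in Lgr5KO for these 59 genes, against 0.13 in each genotype for all genes.

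A single member, the SWI/SNF core subunit Smarcc2, differed between the genotypes by the test, and it fell in Lgr5KO cells. The other 58 were not called by limma's moderated test on log2(FPKM + 0.5), a scale that understates the change of low genes, with Benjamini-Hochberg adjustment over all genes tested. Their direction was uneven, since 47 of 59 were higher in Lgr5KO cells and 12 were lower (79.7% higher, against 47.7% of all genes tested), with a median log2 fold change of 0.14 against -0.01 for all genes. At an adjusted p under 0.05, 0 members were called higher (0.412% of all genes tested) and 1 was called lower (2.67% of all). With a log2 fold change over 1 required as well, 0 members were called in either direction, beside 0.127% of all genes higher and 1.01% lower. At an unadjusted p under 0.05, 14 members were higher, where 9.27% of all genes were, and 1 was lower, where 15.2% were. Both Lgr5KO mice lay above both Lgr5 mice for 37 members, where 25.6% of all genes did so, and below for 8, where 31% did. The changes were small, with 49 of the 59 genes within 0.3 of 0 on the log2 scale. These p-values measure the spread between 2 mice of each genotype, with a variance shared across genes.

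**Figure D1:**
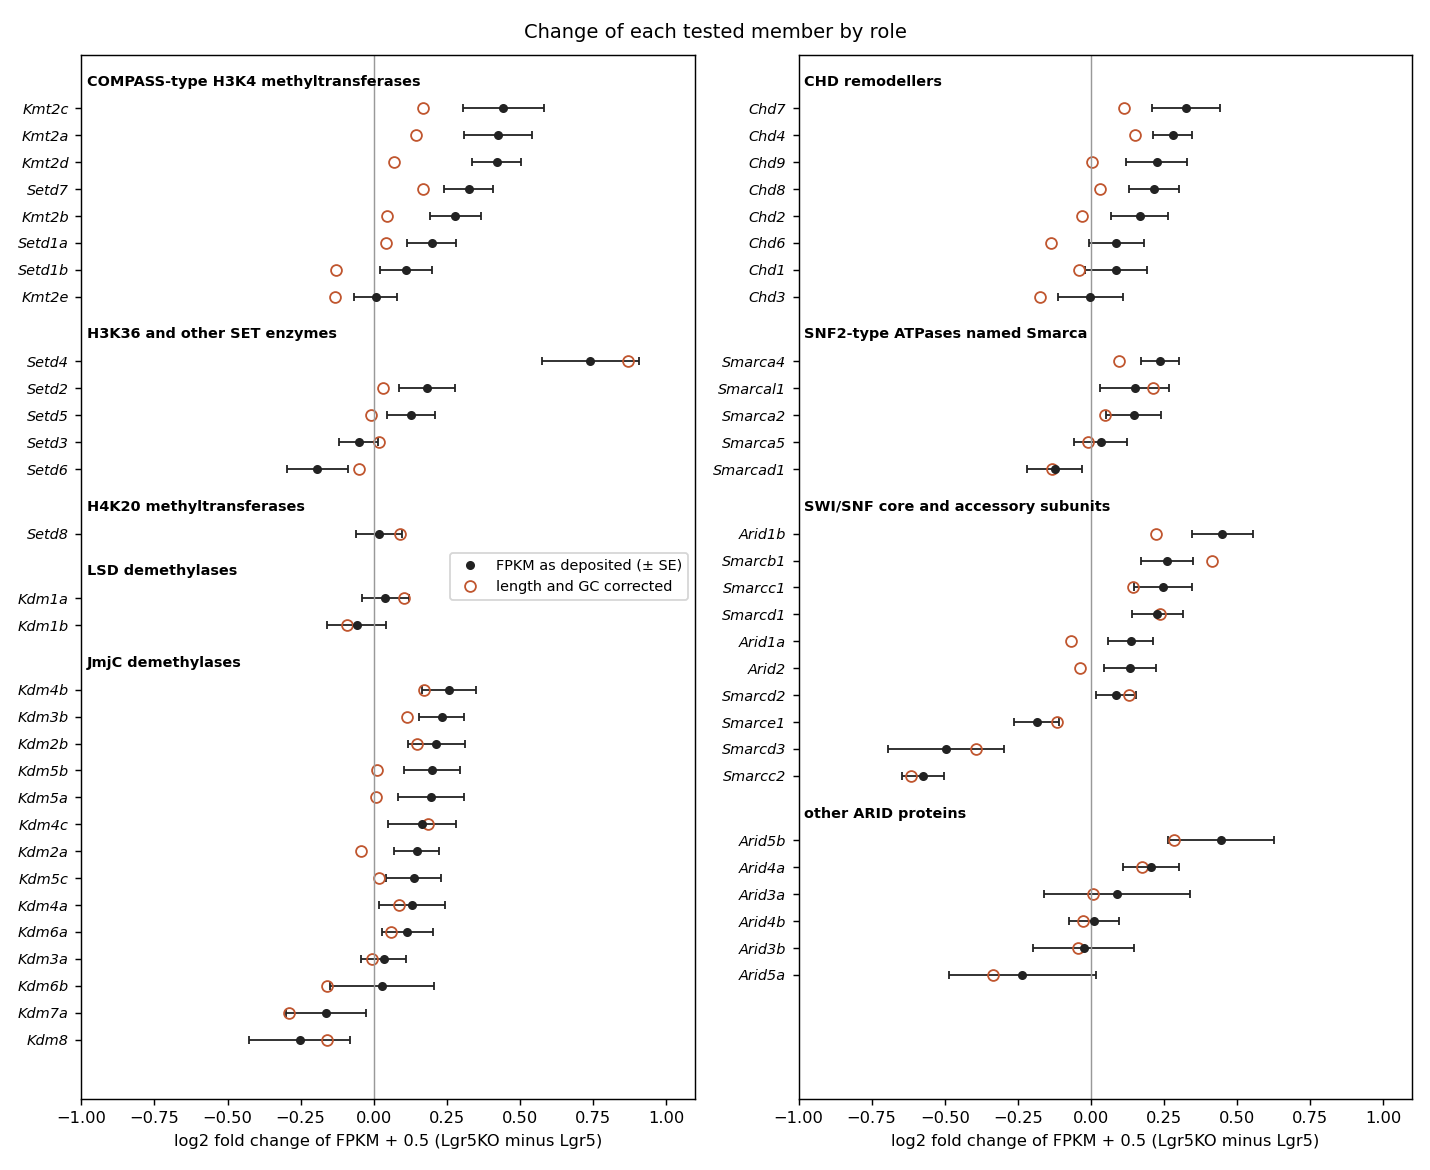
Log2 fold change of FPKM + 0.5 in Lgr5KO against Lgr5 cells for each of the 59 tested genes, by role. Filled points are the values as deposited with their standard error, and open circles are values corrected for transcript length and GC content. Smarcc2 lies at -0.57 and -0.62, Setd4 at 0.74 and 0.87, and the Kmt2 genes move from as much as 0.44 to 0.17 or less.

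The upward shift of these genes followed the length of their transcripts. They are long, with a median transcript of 6363 bases against 2921 for all genes tested (the 89.8th percentile), and 47 of 59 (79.7%) exceed 4000 bases against 30.9% of all genes. Among all genes tested, the median log2 fold change climbed from -0.24 for transcripts of 501 to 1000 bases (703 genes) to -0.03 at 2001 to 4000 bases (4909 genes), 0.14 at 6001 to 8000 bases (907 genes) and 0.33 above 12000 bases (112 genes). Transcripts of 500 bases or less (396 genes), which include no member, were outside this order at -0.07, and their genotypes did not separate. The members of 6001 to 12000 bases had medians close to those of other genes of their own length. The shorter members, and those above 12000 bases, had higher medians than other genes of their length. At 1001 to 2000 bases the 4 members had a median of 0.03 against -0.13 for all genes, at 2001 to 4000 bases the 8 members had 0.03 against -0.03, and at 4001 to 6000 bases the 16 members had 0.10 against 0.06. At 6001 to 8000 bases the 13 members had a median of 0.14, the same as all genes of that length, and 12 of them were higher in Lgr5KO mice (77.6% of all genes). At 8001 to 12000 bases the 14 members had a median of 0.17 against 0.19 for all genes, and 13 were higher (81.4% of all genes). Above 12000 bases, where Kmt2a, Kmt2c, Kmt2d and Chd9 lie, the median was 0.42 against 0.33, and 4 of 4 were higher (88.4% of all genes). In all, 31 of 59 members lay above the median of genes of their length, and the median gap was 0.01. Across genes, which are not independent replicates and share the same 4 libraries, Spearman's rho of length with log2 fold change was 0.43 over the 59 members and 0.36 over 12498 genes with a known length.

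**Figure D2:**
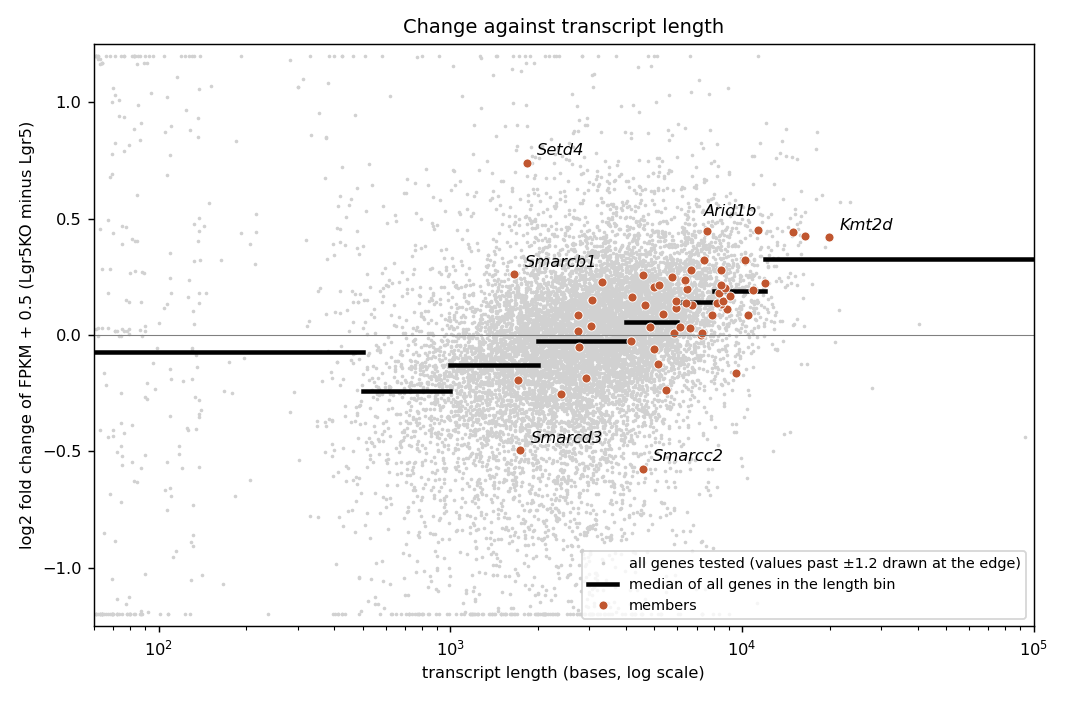
Log2 fold change of FPKM + 0.5 (Lgr5KO minus Lgr5) against transcript length on a log scale. Grey points are all genes tested, orange points are the 59 members, and black bars are the medians of all genes in each range of length, which climb from -0.24 at 501 to 1000 bases to 0.33 above 12000 bases and stand at -0.07 for 500 bases or less.

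From 501 bases up, the length trend was present mouse by mouse. Above 12000 bases, the median deviation from the mean of the 4 mice was -0.10 and -0.21 (log2) in the Lgr5 mice and 0.19 and 0.10 in the Lgr5KO mice. The members showed the same order, with medians of -0.04 and -0.09 in Lgr5 and 0.08 and 0.04 in Lgr5KO mice. When each library was corrected for transcript length and GC content with smooth curves fitted to all genes, these medians became -0.01, -0.03, 0.02 and 0.01, the median log2 fold change of the members became 0.02 (0.04 for all genes), and 35 of 59 were on the higher side. Of the 47 members with positive values before correction, 34 were positive and 13 negative after it, and 1 member, Setd3, turned from negative to positive. After correction 0 members were called higher (0.072% of all genes) and 1 was called lower (0.768%), which was again Smarcc2. At an unadjusted p under 0.05, 2 members were higher (10.3% of all genes) and 1 lower (10.2%), and the genotypes did not overlap for 20 members that lay above (31.4% of all genes) and 11 that lay below (23%). Spearman's rho of length with the corrected change was -0.07 over the members. The curves were fitted to take out length, so this value and the smaller medians are largely set by the correction. Malat1 and Neat1, the nuclear-retained RNAs listed, differed in direction. Malat1 was 63.93 and 41.41 FPKM in Lgr5 mice and 83.73 and 76.26 FPKM in Lgr5KO mice (0.63, adjusted p = 0.159), and was not called. Neat1 was 32.50 and 25.86 against 23.22 and 34.69 FPKM (-0.03, adjusted p = 0.952), so its genotypes overlapped. Xist, also retained in the nucleus, was listed with the sex-linked genes. It was 100.47 and 93.67 against 169.17 and 125.28 FPKM (0.58, adjusted p = 0.109), and was not called. Summed over Malat1, Neat1 and the immediate early genes Fos, Jun and Egr1, the genotypes overlapped. The sums were 1633 and 791 FPKM in Lgr5 mice and 1545 and 1415 FPKM in Lgr5KO mice. Fos, Jun and Egr1 made up most of each sum, with Fos alone at 777 and 382 against 803 and 660 FPKM, so it says little about nuclear-retained RNAs. The part of these RNAs in the trend was not tested. Whether the trend with length arose in the cells or in the preparation of the libraries was not tested.

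**Figure D3:**
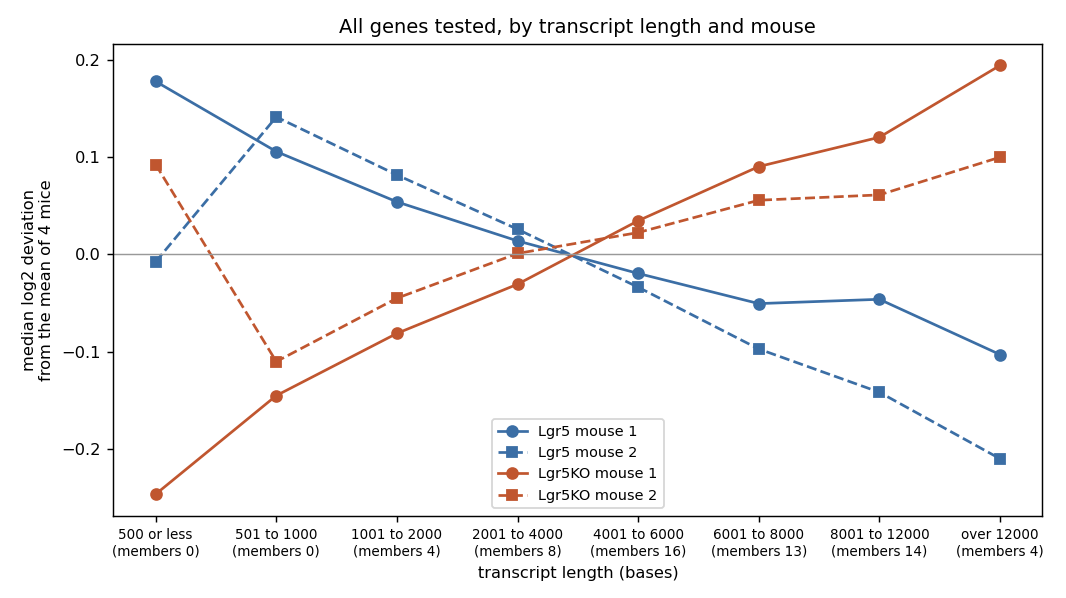
Median log2 deviation from the mean of the 4 mice for all genes tested, by range of transcript length, with 1 line per mouse. Beneath each range is the number of members it holds. Above 12000 bases the Lgr5 mice lie at -0.10 and -0.21 and the Lgr5KO mice at 0.19 and 0.10. From 501 to 4000 bases the order of the genotypes is the opposite.

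The 1 member called lower, beside 2.67% of all genes tested, was a core subunit of the SWI/SNF complex. Smarcc2 (BAF170; chromosome 10, 128459182 to 128490591, GRCm38.p6) and Smarcc1 (BAF155; chromosome 9, 110132024 to 110240178) are paralogous scaffold subunits that dimerise at the base of the complex. Smarcc2 was 39.11 and 40.86 FPKM in Lgr5 mice and 26.95 and 26.44 FPKM in Lgr5KO mice, so that the genotypes were well apart and the mice within each were close. Its means were 40.0 ± 1.24 and 26.7 ± 0.361 FPKM (SD, n = 2), a ratio of 0.668 and a log2 fold change of -0.57 (SE 0.0716, adjusted p = 0.0376). The value after the length and GC correction was -0.62 (adjusted p = 0.0466), and the median of all genes in its range of length was 0.06, on the opposite side of 0. Its adjusted p did not pass in 4 of the other settings, being 0.116 with no filter on low values, 0.077 without the intensity trend, 0.0579 with a replicate block and 0.0814 with the block and the correction. With any 1 of the 4 mice left out the adjusted p lay between 0.175 and 0.305, and none of the 12621 genes was called then.

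Smarcc1 was 29.71 and 28.93 FPKM in Lgr5 mice and 37.72 and 32.27 FPKM in Lgr5KO mice, higher in both but not called (log2 fold change 0.25, adjusted p = 0.214; corrected 0.14). The balance of the pair was therefore different in the genotypes. Smarcc2 exceeded Smarcc1 in the Lgr5 mice, with ratios of 1.32 and 1.41, and lay below it in the Lgr5KO mice, with ratios of 0.714 and 0.819. Because Smarcc2 had been seen to fall, this ratio is given as a description.

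Smarcb1 (SNF5), a core subunit that contacts the nucleosome, has the shortest transcript of the tested genes at 1660 bases and was nevertheless higher in Lgr5KO cells. It was 47.73 and 51.67 FPKM in Lgr5 mice and 56.46 and 62.96 FPKM in Lgr5KO mice (log2 fold change 0.26, SE 0.0890, adjusted p = 0.164). Genes of 1001 to 2000 bases had a median of -0.13, and the corrected value of Smarcb1 was 0.41 (adjusted p = 0.0671). It was never called.

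The promoters of these members are shown for the pair of paralogous scaffolds with opposite directions, for Smarcb1, and for Setd4, the methyltransferase with the largest positive value described further on. Each is the longest stretch, within the 250 bases before the RefSeq start, that lies in no exon of GENCODE M21 and that ends before the RefSeq gene span where that span begins inside the window, printed 5′ to 3′ on the gene's strand in GRCm38.p6. The Setd4 start is an internal one, so its stretch lies within the RefSeq span of the gene (93583457 to 93604791). Capitals mark exact matches on either strand to the letters TATAAA of the TATA box, the letters CCAAT of the box of that name, the letters GGGCGG of the Sp1 site, the letters CCGGAAGT of the ETS site, the letters TTTCGCGC of the E2F site, or the letters CTTTGAT of the TCF site.
Smarcc2, chr10:128458986-128459181, plus strand: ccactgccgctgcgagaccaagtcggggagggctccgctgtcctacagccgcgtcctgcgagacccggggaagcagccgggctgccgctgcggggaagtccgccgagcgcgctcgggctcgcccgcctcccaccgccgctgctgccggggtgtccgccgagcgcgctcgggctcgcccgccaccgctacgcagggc
Smarcc1, chr9:110131774-110131979, plus strand: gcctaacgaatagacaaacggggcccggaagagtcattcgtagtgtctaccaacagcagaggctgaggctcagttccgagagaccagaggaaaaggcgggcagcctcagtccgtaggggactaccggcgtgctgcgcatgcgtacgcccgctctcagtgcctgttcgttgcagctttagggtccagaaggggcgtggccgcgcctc
Smarcb1, chr10:75921618-75921864, minus strand: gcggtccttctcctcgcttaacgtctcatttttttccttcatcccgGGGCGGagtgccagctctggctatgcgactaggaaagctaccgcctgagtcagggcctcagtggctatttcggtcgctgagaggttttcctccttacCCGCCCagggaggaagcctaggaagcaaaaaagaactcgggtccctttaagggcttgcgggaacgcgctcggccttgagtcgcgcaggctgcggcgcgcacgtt
Setd4, chr16:93603816-93603973, minus strand: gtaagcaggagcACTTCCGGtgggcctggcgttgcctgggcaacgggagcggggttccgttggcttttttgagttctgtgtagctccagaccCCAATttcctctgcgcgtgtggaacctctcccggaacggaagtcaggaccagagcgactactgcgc

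The paralogs Smarcc2 and Smarcc1 differ in base composition upstream, with 30 CpG pairs in 196 bases for Smarcc2 and 17 in 206 bases for Smarcc1. Neither printed stretch holds any of the 6 motifs. The full window of 250 bases does hold GGGCGG for Smarcc1, outside the printed stretch, and none of the 6 for Smarcc2. The Smarcb1 stretch holds GGGCGG starting 204 and, on the other strand, 107 bases before the start, and the Setd4 stretch holds CCGGAAGT on the other strand at 146 bases and CCAAT at 66 bases. Over all members, RefSeq gave 62 promoter windows for 47 of the genes. GGGCGG was in 43 of the 62 windows (69.4%), against 56.6% of the 12535 windows of genes tested and 32.7% of all 32851 windows. TATAAA was in 2 (3.23%, against 6.89% and 12.4%) and CCAAT in 22 (35.5%, against 36.1% and 33.8%). CCGGAAGT was in 1 (1.61%, against 5.97% and 2.88%), CTTTGAT in 1 (1.61%, against 2.41% and 3.21%) and TTTCGCGC in 0 (against 0.574% and 0.256%). A window of the members held a median of 21 CpG pairs, against 15 for genes tested and 6 for all, so these genes have CpG-rich starts. None of the 6 motifs contains another, and a match in a window is a description of its letters.

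The remaining SWI/SNF subunits did not pass the test. Of the 10 core and accessory subunits, 7 were higher and 3 lower, with a median of 0.13 (0.05 corrected), and in each of the 10 the mice of the genotypes did not overlap (25.6% of all genes tested did not overlap with Lgr5KO above, and 31% with it below). Smarcd3 (BAF60C), the accessory subunit best known from heart and muscle, was 7.92 and 11.06 FPKM in Lgr5 mice and 5.77 and 7.31 FPKM in Lgr5KO mice, a log2 fold change of -0.50 (SE 0.199, adjusted p = 0.215). Its relative Smarcd2 was 117.10 and 123.35 FPKM against 128.89 and 126.42 FPKM (0.09, adjusted p = 0.48), so the ratio of Smarcd3 to Smarcd2 was 0.0676 and 0.0897 in Lgr5 mice and 0.0448 and 0.0578 in Lgr5KO mice. Smarce1 (BAF57), which carries an HMG domain, was 44.58 and 47.84 against 39.72 and 41.39 FPKM (-0.19, adjusted p = 0.22). The 3 subunits with lower values are thus Smarcc2, Smarcd3 and Smarce1, of which only Smarcc2 was called.

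Arid1a and Arid1b are the alternative ARID subunits of the canonical BAF complex. Arid1a was 34.20 and 31.58 FPKM in Lgr5 mice and 36.52 and 35.81 FPKM in Lgr5KO mice (log2 fold change 0.14, adjusted p = 0.347), and its direction turned to -0.07 after correction. Arid1b was 6.38 and 6.87 against 9.64 and 8.82 FPKM (0.45, SE 0.105, adjusted p = 0.0887), with both Lgr5KO mice above both Lgr5 mice. The corrected value of Arid1b was 0.22 (adjusted p = 0.306), and its transcript is 11325 bases long. Arid1b was 0.187 and 0.218 of Arid1a in Lgr5 mice and 0.264 and 0.246 in Lgr5KO mice.

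**Figure D4:**
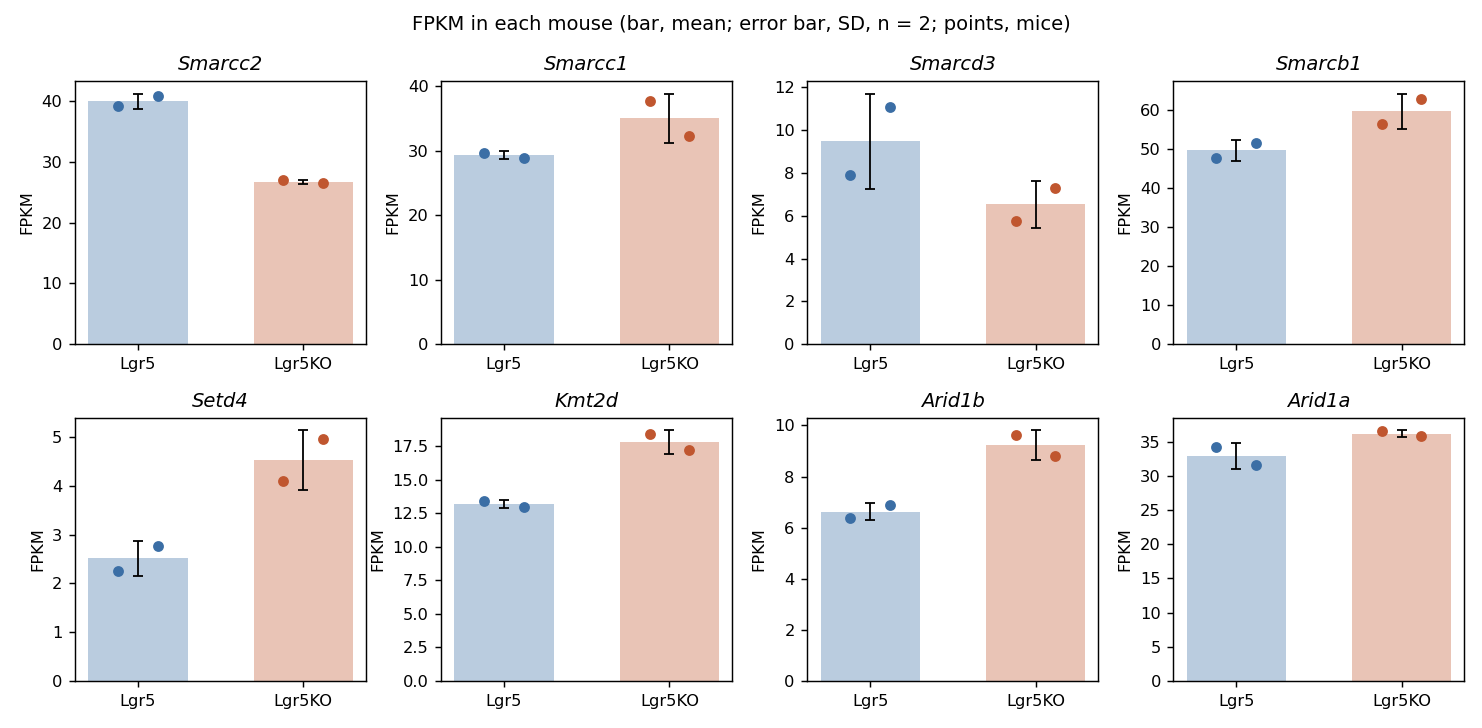
FPKM of 8 members in each mouse (points), with the mean (bar) and SD (error bar, n = 2 mice per genotype). Smarcc2 is lower in Lgr5KO mice (26.95 and 26.44) than in Lgr5 mice (39.11 and 40.86), while Smarcc1, Smarcb1, Setd4, Kmt2d, Arid1b and Arid1a are higher in both Lgr5KO mice and were not called.

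The ATPases that drive these complexes were expressed at unlike levels. Smarca4 (BRG1) was 49.89 and 50.36 FPKM in Lgr5 mice and 58.54 and 59.82 FPKM in Lgr5KO mice (log2 fold change 0.24, SE 0.0657, adjusted p = 0.118; corrected 0.10). Smarca2 (BRM), the alternative ATPase, was 20.59 and 21.73 against 24.99 and 22.04 FPKM (0.15, adjusted p = 0.402). Smarca2 stood at 0.413 and 0.431 of Smarca4 in Lgr5 mice and 0.427 and 0.368 in Lgr5KO mice, ranges that overlap. Smarca5 (SNF2H), the ATPase of ISWI complexes, was 51.50 and 44.92 against 49.69 and 48.80 FPKM (0.03). Of the 5 tested ATPases named Smarca, 4 were higher, the median was 0.15 (0.05 corrected), and none was called. At an unadjusted p under 0.05, 1 was higher (9.27% of all genes tested) before correction and 0 (10.3% of all) after it. Smarcad1, a remodeller that acts behind replication forks, was the member with a negative value (-0.12, adjusted p = 0.469).

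The Chd helicases had 7 of 8 tested members on the higher side, with a median of 0.19 that became -0.01 after correction, and none was called. At an unadjusted p under 0.05, 2 were higher (9.27% of all genes tested) before correction and 0 (10.3% of all) after it. Chd4, the ATPase of the NuRD complex, was 68.07 and 65.29 FPKM in Lgr5 mice and 82.11 and 80.02 FPKM in Lgr5KO mice (log2 fold change 0.28, SE 0.0674, adjusted p = 0.0932; corrected 0.15, adjusted p = 0.275). Its NuRD relative Chd3 was 15.60 and 17.41 against 15.33 and 17.68 FPKM, a log2 fold change of -0.001 whose sign depended on the scaling of the libraries (0.07 with equal sums, 0.01 with quantiles, 0.02 with median ratios). Chd4 was the most abundant of the Chd genes in every mouse, and both its Lgr5KO values lay above both Lgr5 values. Chd7, which is mutated in CHARGE syndrome, was 9.63 and 8.03 against 11.23 and 11.05 FPKM (0.32, adjusted p = 0.18; corrected 0.11). Chd8, known as a binding partner of beta-catenin, was 20.41 and 18.59 against 22.17 and 23.25 FPKM (0.22, adjusted p = 0.216; corrected 0.03). Chd1, which reads methylated H3 lysine 4, was 15.22 and 12.90 against 14.90 and 14.91 FPKM, so its genotypes overlapped (0.09, corrected -0.04). Chd2 was 11.63 and 10.52 against 12.13 and 12.84 FPKM (0.17, corrected -0.03). Chd6 was 9.46 and 8.92 against 10.05 and 9.54 FPKM (0.09, corrected -0.14), and Chd9 was 6.51 and 6.84 against 7.53 and 8.26 FPKM (0.23, corrected 0.00). For Chd1, Chd2 and Chd6 the direction was therefore not kept under the correction.

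The H3 lysine 4 methyltransferases shared a direction. All 8 tested genes were higher in Lgr5KO mice, 7 without overlap of the genotypes (25.6% of all genes tested) and 5 with an unadjusted p under 0.05 (9.27% of all), with a median log2 fold change of 0.30, and none was called. Their median transcript was 8663 bases, in a range of length where 81.4% of all genes were higher, and after correction the median was 0.06 with 6 of 8 higher and 0 at an unadjusted p under 0.05. Kmt2d (MLL4), which marks enhancers, has the longest transcript of the list at 19823 bases in 55 exons. It was 13.39 and 12.99 FPKM in Lgr5 mice and 18.45 and 17.22 FPKM in Lgr5KO mice (0.42, SE 0.0846, adjusted p = 0.0701), and the corrected value was 0.07 (adjusted p = 0.664). Kmt2d was called higher under a single setting, with genes under a mean of 5 FPKM left out (adjusted p = 0.0498).

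The enhancer enzyme Kmt2c (MLL3) was 7.35 and 7.02 against 11.22 and 8.82 FPKM (0.44, adjusted p = 0.143; corrected 0.17). Kmt2a (MLL1), named for its translocations in leukaemia, was 11.95 and 11.23 against 17.20 and 14.39 FPKM (0.43, adjusted p = 0.114; corrected 0.14). In both of these the first Lgr5KO mouse was the higher of the pair. Kmt2b (MLL2) was 19.47 and 17.48 against 22.39 and 22.62 FPKM (0.28, adjusted p = 0.143; corrected 0.05). Kmt2e (MLL5), which is thought to lack methyltransferase activity, was 19.86 and 19.60 against 19.92 and 19.74 FPKM and did not separate the genotypes (0.01; corrected -0.13). Setd7, a methyltransferase that works outside COMPASS and is listed here by its histone site, was 11.44 and 11.35 against 14.83 and 13.97 FPKM (0.32, adjusted p = 0.107; corrected 0.17). The COMPASS enzymes Setd1a and Setd1b were closer to 0, at 0.20 and 0.11. Their corrected values were 0.04 and -0.13, so the direction of Setd1b turned, with both corrected Lgr5KO values below both Lgr5 values.

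Setd4 had the largest positive log2 fold change of the list and a short transcript. Setd4, a SET domain methyltransferase that has been linked to quiescent stem cells, was 2.25 and 2.77 FPKM in Lgr5 mice and 4.10 and 4.96 FPKM in Lgr5KO mice, with no overlap of the genotypes. Its means were 2.51 ± 0.368 and 4.53 ± 0.608 FPKM (SD, n = 2), a ratio of 1.80 and a log2 fold change of 0.74 (SE 0.166, adjusted p = 0.083). At 1826 bases it belongs to a range of length whose median was -0.13, and its corrected value was 0.87 (adjusted p = 0.0671). The adjusted p of Setd4 lay between 0.0638 and 0.315 in the other settings, so it was not called in any. Setd2, the main enzyme that trimethylates H3 lysine 36, was 17.08 and 15.54 against 19.42 and 17.70 FPKM (0.18, adjusted p = 0.316; corrected 0.03). Setd6, which methylates a subunit of NF-kappaB, was 14.69 and 12.66 against 11.87 and 11.86 FPKM (-0.19, adjusted p = 0.324; corrected -0.05). Setd5 was at 0.13 and Setd3, an actin histidine methyltransferase, at -0.05. Among the H4 lysine 20 enzymes, Setd8 was at 0.02. Its relatives Kmt5b and Kmt5c are in the table under the names Suv420h1 (14.77 and 14.83 against 16.46 and 17.11 FPKM; 0.18, adjusted p = 0.253) and Suv420h2 (34.71 and 38.71 against 31.23 and 30.13 FPKM; -0.25, adjusted p = 0.161), and so fell outside the choice by symbol.

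None of the demethylases was called. Of 14 tested enzymes with a JmjC domain, 12 were higher in Lgr5KO mice with a median of 0.14, which became 0.01 with 9 higher after correction. At an unadjusted p under 0.05, 2 were higher (9.27% of all genes tested) before correction and 0 (10.3% of all) after it. Those 2 were Kdm4b, which acts on H3 lysine 9 and was 7.44 and 7.71 against 9.10 and 9.22 FPKM (0.26, adjusted p = 0.177), and Kdm3b, another H3 lysine 9 enzyme, at 16.81 and 17.56 against 20.39 and 20.17 FPKM (0.23, adjusted p = 0.157). Kdm6a (UTX), an H3 lysine 27 demethylase on the X chromosome, was 14.00 and 13.95 against 15.84 and 14.53 FPKM (0.11, adjusted p = 0.471; corrected 0.06). Its relative Kdm6b (JMJD3) was 18.68 and 12.99 against 15.67 and 16.14 FPKM, so that the Lgr5 mice lay on either side of the Lgr5KO mice (0.03; corrected -0.16). Kdm8 was the lowest of this role, at 4.30 and 3.69 against 2.85 and 3.73 FPKM (-0.25, adjusted p = 0.424). The flavin-dependent demethylases Kdm1a (LSD1) and Kdm1b (LSD2) were at 0.04 and -0.06, and their genotypes overlapped.

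The other ARID proteins were led by Arid5b, whose mice differed widely. Arid5b, a cofactor of the demethylase Phf2, was 16.08 and 14.95 FPKM in Lgr5 mice and 25.54 and 17.74 FPKM in Lgr5KO mice, where the first Lgr5KO mouse stood well above the other three mice (log2 fold change 0.45, SE 0.182, adjusted p = 0.221; corrected 0.28). The log2 fold change of Arid5b ranged from 0.19 to 0.70 over the other settings, which included leaving out each mouse. Arid5a, an RNA-binding relative, was 0.61 and 0.83 against 0.47 and 0.60 FPKM (-0.23, adjusted p = 0.616), close to the filter. The 6 tested genes of this role had a median of 0.05 (-0.01 corrected), with 4 higher and none called. At an unadjusted p under 0.05 there were 0, beside 9.27% of all genes tested higher and 15.2% lower.

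Of the 5 genes under the filter of 0.5 FPKM, 4 were below 0.1 FPKM in every mouse. Smarca1 (SNF2L), the neuronal ISWI ATPase, was 0.05 and 0.04 FPKM in Lgr5 mice and 0 and 0.04 FPKM in Lgr5KO mice. Chd5, a neural helicase, was 0.04 and 0.03 against 0.09 and 0.06 FPKM. Arid3c was 0.03 FPKM and Kdm4d 0.02 FPKM in the first Lgr5 mouse, and both were listed at 0 in the other three mice. Smarca5-ps, a transcribed pseudogene that shares sequence with Smarca5, was 0.34 and 0.49 against 0.23 and 0.32 FPKM, and its values are uncertain because reads could be split between the copies.

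Partners of these enzymes were examined as 9 wider lists of complexes, 126 genes in all, of which 122 were tested. Of these, 72 were higher and 50 lower in Lgr5KO mice, with a median of 0.05 (0.04 corrected), 0 called higher and 4 called lower, beside 0.412% and 2.67% of all genes tested. At an unadjusted p under 0.05, 13 were higher and 9 lower (10.7% and 7.38%, against 9.27% and 15.2% of all genes). The shares called lower (3.28%) and higher at an unadjusted p were thus near those of all genes. Hdac2, a deacetylase of the NuRD complex, was 63.79 and 58.96 FPKM in Lgr5 mice and 41.57 and 41.79 FPKM in Lgr5KO mice (log2 fold change -0.55, adjusted p = 0.0384). Actr8, an actin-related subunit of the INO80 complex, was 15.96 and 15.69 against 10.14 and 9.90 FPKM (-0.63, adjusted p = 0.0376). Pcgf1, which defines a variant Polycomb repressive complex 1, was 13.05 and 11.22 against 6.59 and 6.94 FPKM (-0.80, adjusted p = 0.042). Pole3, a histone-fold protein shared by the CHRAC remodeller and DNA polymerase epsilon, was 51.76 and 51.17 against 38.50 and 37.08 FPKM (-0.44, adjusted p = 0.0474). All 4 fell without overlap of the genotypes, and their transcripts are short to moderate, from 918 bases for Pcgf1 to 3250 bases for Hdac2. After the length and GC correction their values were -0.45, -0.53, -0.55 and -0.30 in this order, and none was called (adjusted p = 0.0616, 0.0637, 0.0959 and 0.121). Smarcc2 kept an adjusted p under 0.05 with that correction where these partners did not, and the difference between them was not tested.

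By list, the INO80, SRCAP and TIP60 complexes had 10 of 22 tested genes higher and 12 lower with a median of -0.08, and the median after correction was 0.04. The 4 longest transcripts of that list differed in size of change. Ino80d (13675 bases), the longest, was at 0.06 (adjusted p = 0.78; corrected -0.17). Trrap (12479 bases) was at 0.45, Ep400 (10685 bases) at 0.43 and Srcap (10654 bases) at 0.34, with adjusted p of 0.0742, 0.076 and 0.0756 by limma and corrected values of 0.20, 0.22 and 0.12. The list of COMPASS subunits and partners had 8 of 13 higher with a median of 0.02. Polycomb repressive complex 2, which writes the repressive H3 lysine 27 mark, had 4 of 11 higher with a median of -0.01, and Polycomb repressive complex 1 had 9 of 18 higher with a median of 0.00. The other histone lysine methyltransferases had 13 of 17 higher (0.14), the other JmjC proteins 6 of 8 (0.11), the other SWI/SNF subunits 10 of 15 (0.11), the ISWI partners 6 of 8 (0.11) and the NuRD partners 6 of 12 (0.01). Besides the 4 genes named above, none in these lists was called.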

How the data were processed

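RNA from sorted Lgr5-high cells of 2 Lgr5 and 2 Lgr5KO mice was analysed, with genotypes taken from the sample labels. The authors deposited a table of FPKM values, 1 row per gene and 1 column per mouse, rounded to 2 decimals. By the study's methods, which name crypts and intestines and not the sorted cells, reads were mapped to GRCm38.p6 transcripts with Bowtie2 and quantified with RSEM, and the submitters' processing notes also list HISAT. FPKM is relative within a library, and depth is unknown.

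Members were found by symbol, and 63 of 64 matched RefSeq by symbol and Setd8 by synonym. The members, lists and tests were chosen with earlier results of these data known. Values were log2(FPKM + 0.5), and genes whose mean over the mice reached 0.5 FPKM were fitted with limma 3.58.1 in R 4.3.3 (lmFit, eBayes with an intensity trend, Benjamini-Hochberg over 12621 genes). No count model was run on FPKM. Lengths, exons and GC came from the longest coding transcript in GENCODE M21, coordinates and promoters from RefSeq on GRCm38.p6. The correction subtracted natural splines (5 degrees of freedom) of length and GC in each library. Named genes were those called, the 6 highest and 6 lowest members, the longest and shortest transcripts, fixed paralog sets, members under the filter and called partners. Setd1a, Setd1b, Setd2, Setd3, Setd5, Setd7, Setd8, Kdm1a, Kdm1b, Kdm3b, Kdm4b, Smarca5, Smarcad1, Smarcd2, Ino80d, Trrap, Ep400 and Srcap lie outside this rule and were picked with their values in view.

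The scripts were tested on simulated data. Same-numbered mice are different animals, and their deviations did not move together (correlation -0.0266 over 12621 genes). The pseudocount, filter, scaling, trend, block, transcript length and each mouse were varied. Python 3.11.15 with pandas 2.3.3 and matplotlib 3.10.9 was used for summaries. Kdm5d, whose symbol fits the choice of members, and Uty were not found among the genes measured.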

Additional observations from a re-analysis of the deposited data

How the results depend on the processing

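Over 16 alternative settings, members called lower went from 1 to 0 with no filter on low values, without the intensity trend, with the replicate block, with the replicate block and the correction together, and with any mouse left out (0 to 0), where the lone mouse is taken to vary like the others, and it was 1 in the other settings. Members called higher were 1 with a mean of at least 5 FPKM and 0 elsewhere. The median log2 fold change of the members was 0.21 with libraries scaled to the same sum, 0.17 with quantile normalization, 0.017 with the length and GC correction, with and without the replicate block, and 0.098 to 0.19 with a mouse left out. Of the partner lists, 0 genes were called with no filter, without the trend, with the replicate block, with the correction, with both, or with any mouse left out (0 to 0), 1 with equal sums and 2 with quantiles. Directions turned for 7 of the 29 members named by rule, none of them called. Outside the rule, Setd1b (-0.13), Setd5 (-0.0092), Smarca5 (-0.011) and Setd3 (0.017) turned under the correction, and Setd8 (down to -0.056), Kdm1a (down to -0.021) and Kdm1b (up to 0.025) under other settings. Under the correction, with and without the replicate block, the turned values of members named by rule were -0.067 for Arid1a, -0.040 for Chd1, -0.031 for Chd2, -0.14 for Chd6, -0.16 for Kdm6b and -0.13 for Kmt2e. With a mouse left out the range was -0.029 to 0.20 for Chd1, -0.10 to 0.098 for Chd3, -0.23 to 0.28 for Kdm6b and -0.0021 to 0.016 for Kmt2e, with the turned sign without the second Lgr5 mouse and, for Chd3 (0.075), also without the first Lgr5KO mouse (0.098). Chd3 was also 0.075 with equal sums, 0.014 with quantiles and 0.021 with median ratios. The replicate block gave 15 genes called higher and 168 lower of all genes tested, against 52 and 337 without it, and the same-numbered mice share only a number. Equal sums gave 85 higher and 241 lower. The correction gave 9 and 96, a mean of at least 5 FPKM 116 and 447, transcripts of at least 200 bases 126 and 531, no trend 0 and 4, and no filter 0 and 0. Scaling moved the median of all genes by at most 0.07. The cause of these changes was not tested. Depth cannot be read from FPKM, and genes near 0.5 FPKM are limited by it.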
